A study of Mus musculus with 8 samples.

Results

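Figla, Nobox, Lhx8, Sohlh1, Sohlh2, Taf4b and Taf7l encode transcription factors of the oocyte and the germ line. Their mRNAs were examined in gonads of mouse embryos at E14.5, before and after immunoprecipitation with an antibody against the RNA-binding protein DAZL. Array probes were taken as members when the gene name in the scanner files was 1 of these 7 names, or an older name of the same gene borne out by its accession or description. This gave 9 probes for 6 genes, out of 41174 probes and 19686 named genes on the array. Sohlh1 was found under no name or accession of the array used here and has no value below.

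RNA immunoprecipitation (RIP) recovers the RNA that comes down with a protein from a lysate and sets it beside RNA of the starting lysate, called input. Each of 4 groups held 2 arrays: XX input, XX IP, XY input and XY IP. All gonads came from embryos of strain MCH with no genetic change named in the labels, a preparation pooled 50 gonads, and 5% of the cleared lysate served as input. The labelled cRNA started from 50 ng of RNA for inputs and 1 ng for IPs. No control-antibody IP was hybridised among these arrays, and enrichment was measured against input.

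The members act in successive layers of gene control in germ cells. SOHLH1 and SOHLH2 are basic helix-loop-helix (bHLH) proteins of differentiating oocytes and spermatogonia, and LHX8 is a LIM-homeodomain protein of oocytes. FIGLA, also a bHLH protein, is best known for switching on the zona pellucida genes, while NOBOX is a homeodomain protein needed for follicles to grow. Mice lacking any of these oocyte factors lose their oocytes or fail to form normal follicles. TAF4B and TAF7L are germ-cell relatives of TAF4 and TAF7, which are subunits of TFIID, the complex that brings the TATA-binding protein TBP to promoters. DAZL is a germ-cell protein that binds mRNAs and regulates their translation and stability. At E14.5, XX germ cells are entering meiosis and XY germ cells are ceasing to divide and entering quiescence.

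The promoters of 4 members whose inputs differed between the sexes are shown first, because the bHLH members of the group recognise E-boxes. Each sequence runs from 250 bases before to 50 bases after the gene's start, 5′ to 3′ on the gene's own strand, from RefSeq on build GRCm38.p6. Capitals mark E-boxes, written CANNTG, which reads the same way on both strands. The intervals are chr6:86016941-86017240 for Figla (plus strand), chr3:154330511-154330810 for Lhx8 (minus), chr3:55181794-55182093 for Sohlh2 (plus) and chrX:134476441-134476740 for Taf7l (minus).
Figla: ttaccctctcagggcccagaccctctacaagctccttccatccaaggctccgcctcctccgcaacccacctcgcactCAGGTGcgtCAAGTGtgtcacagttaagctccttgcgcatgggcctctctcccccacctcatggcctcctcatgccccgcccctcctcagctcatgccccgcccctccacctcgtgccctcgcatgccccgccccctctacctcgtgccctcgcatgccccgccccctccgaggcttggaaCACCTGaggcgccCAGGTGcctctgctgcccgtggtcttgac
Lhx8: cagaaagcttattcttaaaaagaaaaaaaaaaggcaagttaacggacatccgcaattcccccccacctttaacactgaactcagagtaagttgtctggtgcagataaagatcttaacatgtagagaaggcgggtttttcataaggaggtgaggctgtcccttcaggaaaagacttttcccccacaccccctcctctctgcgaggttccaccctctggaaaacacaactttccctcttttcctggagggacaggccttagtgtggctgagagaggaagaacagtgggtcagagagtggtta
Sohlh2: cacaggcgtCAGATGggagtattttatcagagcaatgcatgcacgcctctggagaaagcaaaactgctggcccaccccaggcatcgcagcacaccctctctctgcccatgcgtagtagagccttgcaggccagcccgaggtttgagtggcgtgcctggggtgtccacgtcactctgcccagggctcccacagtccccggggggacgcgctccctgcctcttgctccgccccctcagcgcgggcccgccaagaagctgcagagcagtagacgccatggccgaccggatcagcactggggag
Taf7l: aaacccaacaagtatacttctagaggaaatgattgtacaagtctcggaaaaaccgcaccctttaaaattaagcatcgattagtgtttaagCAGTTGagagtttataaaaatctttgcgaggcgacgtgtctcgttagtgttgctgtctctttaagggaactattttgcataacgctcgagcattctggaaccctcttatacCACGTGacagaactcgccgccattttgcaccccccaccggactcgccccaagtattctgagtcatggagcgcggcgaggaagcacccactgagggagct
The Figla window held 4 E-boxes, that of Sohlh2 held 1, that of Taf7l held 2 and that of Lhx8 held 0. Of 32851 windows of the same length, 72.31% held at least 1. The form CACGTG, a subset of CANNTG, was present in 7.15% of all windows and in that of Taf7l, at position -49 from the start. The promoter table held 6 of the 7 members. Nobox, with 2 E-boxes, and Sohlh1, with 5, of which 3 were CACGTG, were also in it. These matches describe the letters of the windows and are not evidence of binding.

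Probe positions are those of the files, on build mm8, for which no annotation was used here, so exons are not assigned. Figla has probe A_51_P326140 (chromosome 6, 85986535 to 85986594) and Nobox has A_52_P291083 (chromosome 6, 43233334 to 43233393). Lhx8 has A_51_P298615 (chromosome 3, 154241706 to 154241765) and A_52_P508827, whose start lies 478 bases away. Sohlh2 has A_51_P378699 (chromosome 3, 55297531 to 55297590). Taf7l has A_52_P246973 (chromosome X, 129806683 to 129806742) and A_51_P405007, 5578 bases away. Taf4b has A_51_P369091, and A_51_P248293, whose listed interval spans 13038 bases where the other 8 probes span 60.

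Signals are given as log2 of the scanner signal relative to the 75th percentile of the same array, so 0 is the signal of the probe at that percentile. The arrays carried 16713 to 20391 probes above background in the inputs and 6068 to 9468 in the IPs. On the IP arrays the 75th percentile itself lay near background (6.83 to 13.1 scanner units, against 77.4 to 173 on the inputs), so a probe at background on every array still shows a positive IP minus input difference. Differences with a side below background on every array are therefore given as a bound or without a fold. Sex lay with slide, XX on 1 slide and XY on the other, so the effects of sex and slide cannot be told apart. Xist was above background on both XX inputs and on none of the XY arrays, and Ddx3y and Eif2s3y were above background on both XY inputs and on none of the XX arrays. Of 5 germ cell markers, 5 were above background on each input. Of 11 markers of Sertoli, pregranulosa, Leydig and endothelial cells, 6 and 7 were above background in XX inputs and 0 and 1 in XX IPs, while XY inputs had 8 each and XY IPs 2 and 5. Blood markers stayed visible in the IPs. Of 3, all were above background on each input, and 2 and 3 on the IPs of each sex.

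Of the 9 member probes, the XX inputs had 8 and 7 above background and the XX IPs 5 and 6. In XY gonads these numbers were 4 and 4 for the inputs and 1 and 2 for the IPs. The low-signal filter asked for signal above background on all arrays of any group, and kept 7 probes of 6 genes. The Lhx8 probe A_52_P508827 was above background on no array, and the Taf4b probe A_51_P248293 on 1 XX input alone.

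**Figure D1:**
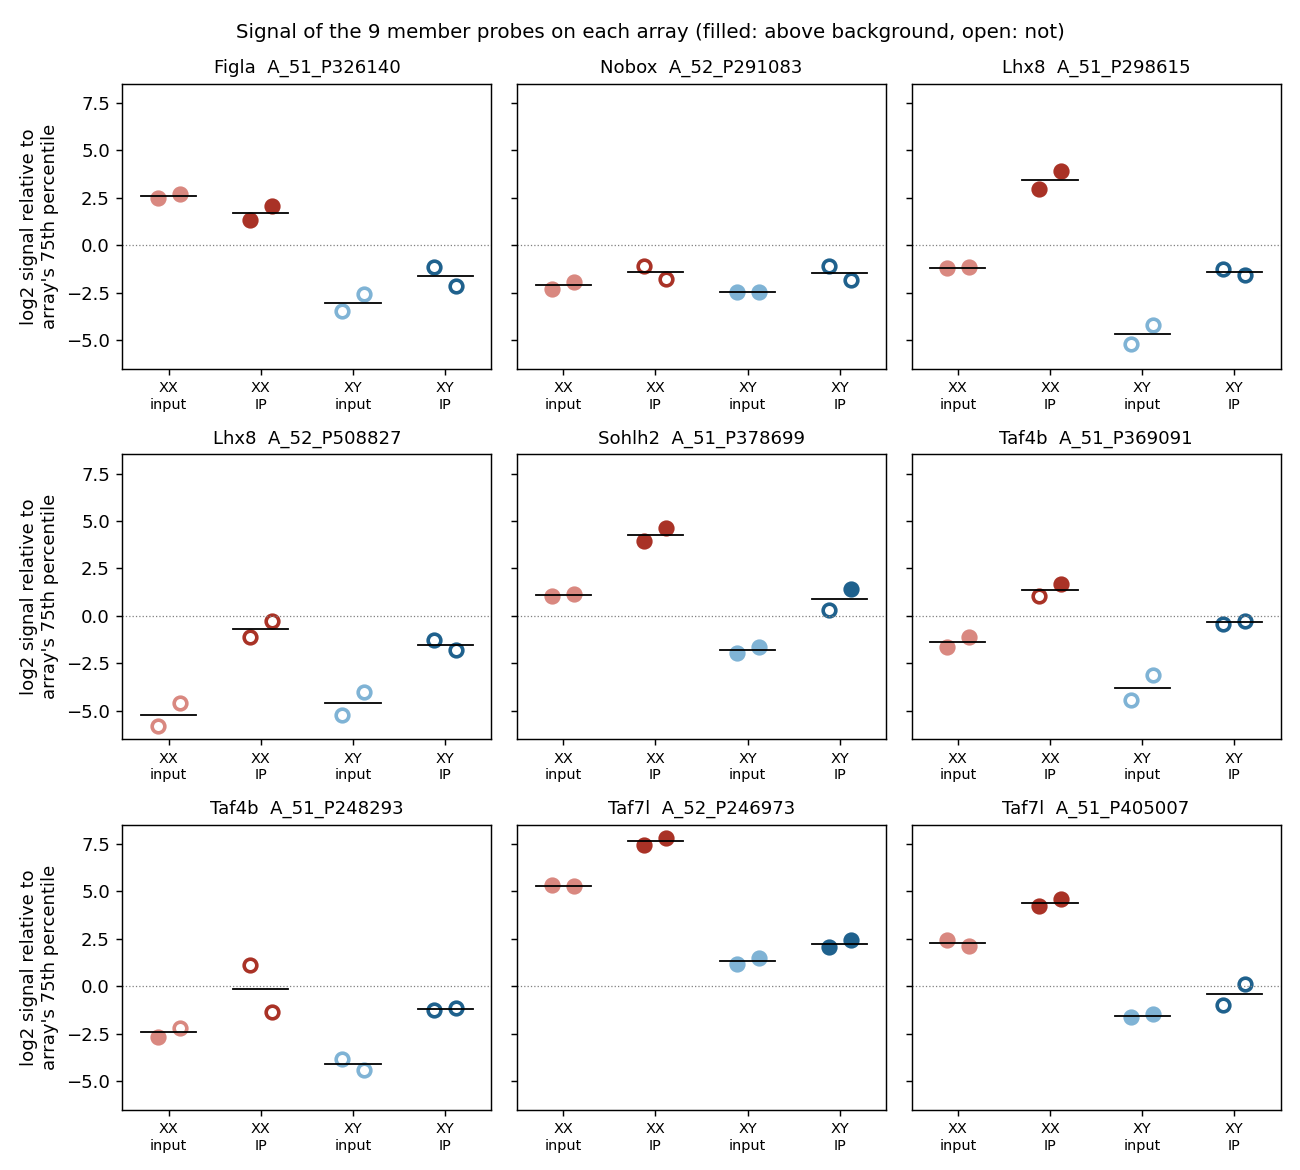
Log2 signal relative to each array's 75th percentile (y axis) for the 9 member probes on the 8 arrays, in 4 groups of 2 (x axis). Filled points were above background, open points were not, and black lines are group means. Both Taf7l probes, Sohlh2 and Lhx8 (A_51_P298615) are highest in the XX IP, whereas Figla is highest in the XX input.

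Of the 3 genes above background in all 4 inputs, Taf7l and Sohlh2 had more signal in XX than in XY gonads and Nobox gave no detectable difference. Figla, Lhx8 and Taf4b were above background in the XX inputs and in neither XY input. The fit called 6 of 7 tested probes higher in XX (adjusted p under 0.05) and 0 lower, against 5.87% of all 18265 tested probes called higher and 6.10% called lower. Figla, Lhx8 and Taf4b passed the filter only through XX samples, so a difference was built into their being tested. Without them, 3 of 4 probes, for 2 of 3 genes, were called higher, 2 of these probes being of Taf7l. The shares given are over all tested probes. None was computed for probes above background in all 4 inputs, so this count has no matched share beside it.

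Taf7l was above background in the inputs of both sexes and higher in XX. Probe A_52_P246973 read 5.33 and 5.29 in the XX inputs and 1.19 and 1.52 in the XY inputs. In scanner units these were 6945 and 3021 against 271 and 232. Both XX values lay above both XY values, as for 38.0% of all tested probes, and the difference was 3.95 (SE 0.39, 15.5-fold, adjusted p = 5.8e-05). The probe A_51_P405007 of the same gene gave 3.82 (SE 0.45, 14.1-fold, adjusted p = 0.00017), from 2.44 and 2.12 in XX and -1.64 and -1.44 in XY. Both probes thus gave input differences within 1 SE of each other at this setting. Under the alternatives A_52_P246973 never fell below 3.58, whereas A_51_P405007 gave 2.15 with normexp, 2.54 after replacing outlying local backgrounds and 1.26 with the common floor.

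Figla read 2.47 and 2.69 in the XX inputs, and neither XY input, at -3.45 and -2.59, was above background. The XX input was at least 42.8-fold higher over each array's own floor at the main setting (adjusted p = 2.5e-05). In the XX inputs 90.3% and 91.0% of the array's probes lay below Figla. The size of the difference depended on the treatment of background, at 2.54 with normexp, 3.12 with normexp after replacing outlying local backgrounds and 1.56 with a common floor on all arrays. The 42.8-fold bound held at none of these settings, while the difference stayed called. On the XY IPs Figla was not above background either, so it was seen in XX samples alone.

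Sohlh2 was above background in the inputs of both sexes. It read 1.06 and 1.14 in XX and -1.97 and -1.63 in XY, a difference of 2.90 (SE 0.46, 7.49-fold, adjusted p = 0.0014). Lhx8 read -1.22 and -1.14 in XX and was not above background in XY, where it read -5.18 and -4.20, so the XX input was at least 3.29-fold higher over each array's own floor (adjusted p = 0.00045). This Lhx8 probe, A_51_P298615, was thus dim in the XX input, at 74.1 and 35.1 scanner units. Taf4b read -1.64 and -1.11 in XX and was not above background in XY, at -4.44 and -3.14, which made the XX input at least 2.87-fold higher over the same floor (adjusted p = 0.0063). Neither of these bounds held with normexp or with a common floor on all arrays, as the values below show.

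Nobox was dim in all 4 inputs, at no more than 35.1 scanner units, and above background in each. It read -2.30 and -1.93 in XX and -2.45 and -2.49 in XY. The XX minus XY difference was 0.35 (SE 0.43, adjusted p = 0.72), with a 95% interval of -0.59 to 1.29. Both XX values lay above both XY values, by less than the error of the fit.

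The germ cell markers were mixed between the inputs. Dazl differed by 1.22 (XX minus XY, adjusted p = 0.067), Ddx4 by -0.19 (adjusted p = 0.85) and Mael by -0.84 (adjusted p = 0.25), none of them called. Dnd1 (-4.33) and Dppa3 (-4.19) were called lower in XX. The summed scaled signal of the 5 was 103 and 114 in the XX inputs and 174 and 206 in the XY inputs, of which Dppa3 alone made up 3.14 and 3.91 in XX and 54.2 and 74.9 in XY, so the sum does not stand for the whole list. Gonadal cell types moved with sex in the inputs. The summed signal was 0.780 and 0.920 in XX against 26.5 and 30.6 in XY for the 3 Sertoli markers, and 12.5 and 10.3 against 1.72 and 1.53 for the 3 pregranulosa markers. The part of cell composition in the member differences was not tested, and in whole gonads more cells of a type and more RNA per cell cannot be told apart. When the background was corrected with the normexp model, 3 of 7 probes were called, with differences of -0.15 for Taf4b, 0.01 for Lhx8 (adjusted p = 0.99) and 1.24 for Sohlh2 (adjusted p = 0.091). Of all tested probes 2.21% were called higher and 1.06% lower at that setting. With a common floor on all arrays Lhx8 was at 0 and Sohlh2 at 0.08 (adjusted p = 1 for each), and the Sohlh2 call was also lost with the 50th percentile (2.93, adjusted p = 0.060) and with unmoderated variances (adjusted p = 0.069). The Lhx8 call was also lost with quantile normalization (2.20, adjusted p = 0.050), with unmoderated variances (adjusted p = 0.055) and with normexp after replacing outlying local backgrounds (0.63, adjusted p = 0.19). Taf4b also lost its call with normexp after replacing outlying local backgrounds (0.47, adjusted p = 0.19), with the common floor (0), with the 50th percentile (2.44, adjusted p = 0.078) and with unmoderated variances (adjusted p = 0.11). It was lost as well without XX input 2 (2.15, adjusted p = 0.066) or without XY input 1 (1.76, adjusted p = 0.14).

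**Figure D2:**
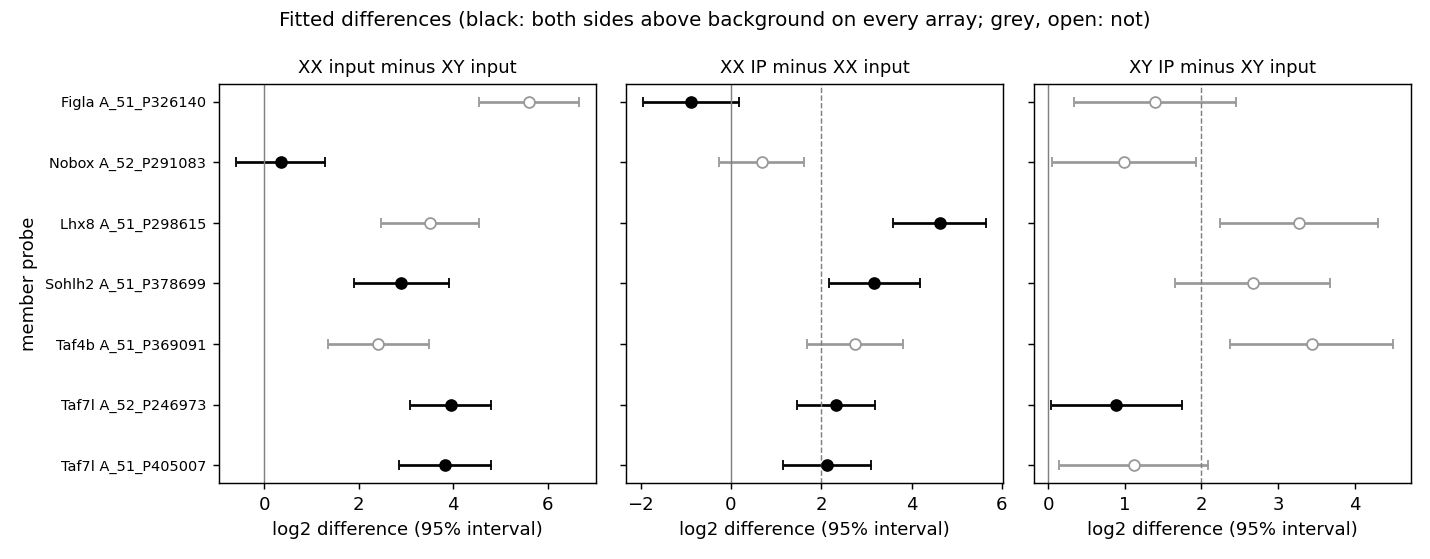
Fitted log2 differences (x axes) with 95% intervals for the 7 tested member probes (y axis) in 3 comparisons; black points had both sides above background on every array, grey open points did not, and the dashed line marks the 4-fold minimum. In the XX IP the Figla interval spans 0, while Lhx8 (4.62), Sohlh2 (3.17) and both Taf7l probes (2.33 and 2.13) lie beyond 4-fold.

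In XX gonads Lhx8, Sohlh2 and Taf7l mRNAs were enriched in the DAZL IP over the input, and Figla mRNA, above background on the same arrays, was not. A probe was called enriched at an adjusted p under 0.05 and at least 4-fold. The fit called 5 of 7 member probes enriched, and 14.0% of all tested probes. Among the 5 member probes above background on all 4 XX arrays, 4 were called, and 26.5% of the 5567 probes of that kind. None was called depleted (9.91% of all tested probes were), Figla being the 1 measured probe with a negative difference (adjusted p = 0.15).

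The Lhx8 probe A_51_P298615 was dim in the XX input and rose in the XX IP. Its signal was -1.22 and -1.14 in the XX inputs and 2.96 and 3.92 in the XX IPs, both IP values above both inputs, as for 40.2% of all tested probes. The difference was 4.62 (SE 0.47, 24.6-fold, adjusted p = 7.3e-05). With the common floor, which raises the dim input, it was 2.42 (adjusted p = 0.011), below that of Sohlh2 (3.17). On the arrays themselves Lhx8 moved from above 66.4% and 67.2% of probes in the inputs to above 92.7% and 94.1% in the IPs. Of the 5567 probes above background on all 4 XX arrays, 37 had a larger difference than Lhx8.

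Sohlh2 read 1.06 and 1.14 in the XX inputs and 3.93 and 4.62 in the XX IPs. The difference was 3.17 (SE 0.46, 9.02-fold, adjusted p = 0.00030). It exceeded 90.5% of the probes above background on all 4 XX arrays. The Sohlh2 call was lost with the 50th percentile (1.17, adjusted p = 0.19) and with both normexp settings (1.02, under the fold minimum). Sohlh2 and Lhx8 were the members with differences above 3 in XX.

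Taf7l, whose probe A_52_P246973 lay in the XX inputs above 98.6% and 98.3% of probes, rose further in the IPs, to above 99.7% and 99.6%. It read 7.43 and 7.84 in the XX IPs, a difference of 2.33 (SE 0.39, 5.03-fold, adjusted p = 0.00069) from the input values given above. Probe A_51_P405007 read 4.21 and 4.60, a difference of 2.13 (SE 0.45, 4.37-fold, adjusted p = 0.0024). The 2 probes again differed by less than 1 SE. Both lay close to the 4-fold minimum, exceeding 78.8% and 75.6% of the probes above background on all 4 XX arrays, and A_51_P405007 fell below the minimum without XX input 2 (1.97) or XX IP 2 (1.93). Both Taf7l probes fell below it with scaling to the 75th percentile of probes above background on all arrays (1.90 and 1.70) and with quantile normalization (1.96 and 1.94).

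Taf4b read 1.05 and 1.69 in the XX IPs, of which only the second was above background, against -1.64 and -1.11 in the inputs. The difference was 2.75 (SE 0.49, adjusted p = 0.00095) and rests in part on an IP array where the probe was not above background. The call was lost with the common floor (0.34, adjusted p = 0.50), with the 50th percentile (0.74, adjusted p = 0.34) and with both normexp settings (0.95). Its second probe was above background on neither XX IP.

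Figla went the other way. It read 2.47 and 2.69 in the XX inputs and 1.35 and 2.05 in the XX IPs, both lower. The difference was -0.88 (SE 0.48, adjusted p = 0.15), with a 95% interval of -1.94 to 0.17. The interval lies wholly below a 4-fold enrichment at this scaling, and 22.2% of the probes above background on all 4 XX arrays had a lower value. Nobox could not be assessed, since it was above background on neither XX IP, at -1.09 and -1.78.

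The contrast of Figla with Lhx8, Sohlh2 and Taf7l does not depend on the factor by which an array is scaled, because the ratio of a pair of probes is taken within each array. The log2 ratio of Lhx8 to Figla was -3.69 and -3.83 in the XX inputs and 1.62 and 1.87 in the XX IPs, a change of 5.51 log2 units. For Sohlh2 to Figla the change was 4.06, and for Taf7l to Figla it was 3.21 and 3.01 with its 2 probes. In all of these ratios both IP values lay above both input values, which shows unequal change and leaves the change of each mRNA alone unset. The ratios share Figla as denominator, and 4329 of the 5567 probes above background on all 4 XX arrays had a larger difference than Figla. A rising ratio to Figla was thus common among such probes and is not particular to these members. Background correction did move these changes, to 3.58, 2.67, 1.82 and 1.74 in the same order with normexp, and for Lhx8 to 3.30 with the common floor.

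The calls themselves do depend on the scaling and the background correction. Scaling to the 50th percentile lowered the median of all tested probes from 0.09 to -1.92 and left 1 of 7 probes called enriched, Lhx8 at 2.62 (adjusted p = 0.0086), with Figla at -2.89 (adjusted p = 0.0039). At that scaling 1.03% of all tested probes were called enriched and 47.3% depleted, Figla among them. With the normexp correction 0 of 7 probes reached the fold minimum, Lhx8 coming closest at 1.93 (adjusted p = 0.012), and the Taf7l differences were 0.17 and 0.09. That correction called 0.378% of all tested probes enriched. Figla stayed under 4-fold but its lower IP signal passed the p threshold with normexp (-1.65, adjusted p = 0.010, or 0.00041 after replacing outlying local backgrounds) and with quantile normalization (-0.91, adjusted p = 0.034).

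**Figure D3:**
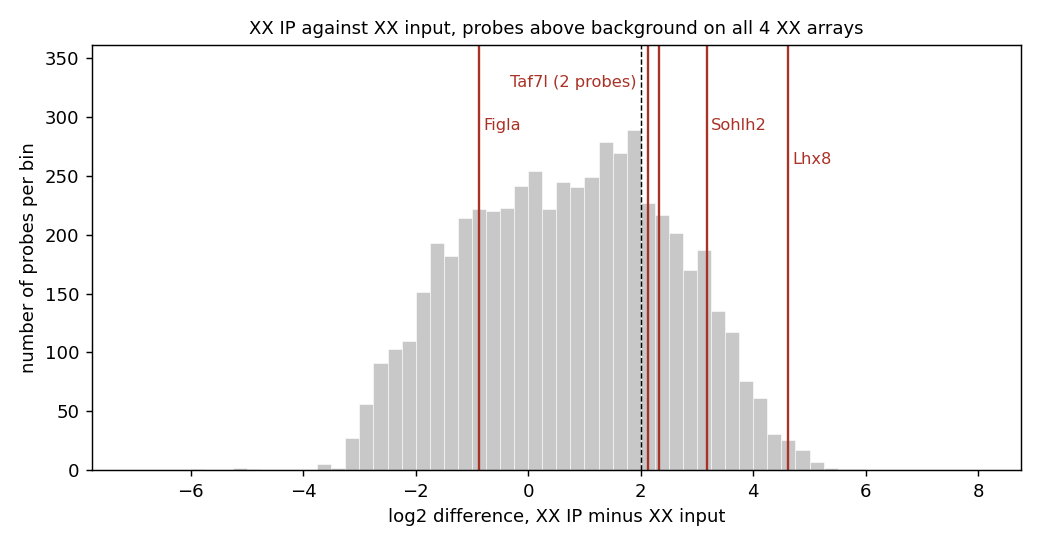
Number of probes (y axis, bins of 0.25) by log2 difference between XX IP and XX input (x axis), for the 5567 probes above background on all 4 XX arrays. Red lines mark the 5 member probes among them and the dashed line 4-fold. Lhx8 (4.62) lies in the upper tail, Sohlh2 (3.17) and the Taf7l probes (2.33 and 2.13) above 4-fold, and Figla (-0.88) below the median of 0.77.

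In XY gonads the members gave little signal to compare. The fit called 3 of 7 probes enriched, against 10.2% of all tested probes, but Lhx8 and Taf4b, which were 2 of the 3, were above background on none of the 4 XY arrays, so no fold is given for them. None was called depleted (7.68% of all tested probes were). The call that remains, Sohlh2, had 1 of 2 IP arrays above background.

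Sohlh2 read -1.97 and -1.63 in the XY inputs and 0.31 and 1.42 in the XY IPs, the second of which was above background. The difference was 2.67 (SE 0.46, adjusted p = 0.0012), and both IP values lay above both input values, as they did for 35.4% of all tested probes. This call was lost with the 50th percentile (0.80, adjusted p = 0.35), with normexp (0.43, adjusted p = 0.47, or 0.93 after replacing outlying local backgrounds) and with the common floor (0.20, adjusted p = 1). Taf7l was the member above background on all 4 XY arrays, through probe A_52_P246973, which read 1.19 and 1.52 in the inputs and 2.06 and 2.43 in the IPs. The difference was 0.89 (SE 0.39, 1.85-fold, adjusted p = 0.090), under the fold minimum and above the adjusted p threshold, while 19.5% of the 5481 probes above background on all 4 XY arrays were called enriched.

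The other Taf7l probe read -1.64 and -1.44 in the XY inputs and was above background on neither XY IP, at -0.97 and 0.11. Figla, at -1.12 and -2.13, and Nobox, at -1.11 and -1.85, were above background on neither XY IP. Their XY enrichment is therefore not known at the sensitivity of these arrays, which is not a sign of absence.

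A comparison of the sexes asked whether the members were recovered with DAZL more in XX than in XY, beyond their difference in input. The test of the difference between the enrichments in limma called 0 of 7 member probes, with 2 at an unadjusted p under 0.05. These went opposite ways, Figla at -2.28 with its XY side at background, and Taf7l probe A_52_P246973 at 1.44. The share of all tested probes at that unadjusted limit was not computed. Other settings called 1 (quantile normalization, normexp with outlying local backgrounds replaced, or a replicate block) or 2 (the common floor, with Sohlh2 at 2.98). At the main setting 2.18% of all tested probes were called more enriched in XX and 1.12% less. Taf7l probe A_52_P246973, above background on all 8 arrays, is the member probe for which the difference rests on measured signal throughout. Its enrichment was larger in XX by 1.44 (SE 0.56, unadjusted p = 0.024, adjusted p = 0.21), with a 95% interval of 0.23 to 2.65. It was 0.91 with quantile normalization, 0.46 with normexp and 0.55 with normexp after replacing outlying local backgrounds, and was not called at any setting. For Sohlh2 the difference was 0.51 (SE 0.65, adjusted p = 0.78), with 1 XY IP array not above background. For Figla, Lhx8 and Taf4b the XY side was at background, and the value says nothing of binding in XY. Without XY IP 2 the Figla value was -2.78, which likewise says nothing of binding in XY.

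By level, the order of the 4 groups was the same for the Taf7l probe measured everywhere and for Sohlh2: XX IP, XX input, XY IP, XY input. For this Taf7l probe the 3 steps down were 2.33 within XX, then from an XX input of 5.31 ± 0.03 to an XY IP of 2.24 ± 0.26 (SD, n = 2), then 0.89 within XY, the last not past the test. For Sohlh2 the XX input at 1.10 ± 0.06 and the XY IP at 0.87 ± 0.78 did not differ beyond their spread. For Figla the order was XX input, then XX IP, which did not differ beyond the error of the fit at the main setting, with both XY groups below background.

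TAF4B and TAF7L stand in for subunits of TFIID, so the other subunits were examined by their brightest tested probe. Of 15 genes, 14 were tested, Taf6 not being above background on both arrays of any group. In the XX IP 5 of 14 were called enriched and 0 depleted (14.0% and 9.91% of all tested probes), with a median of 1.60 against 0.09 over all tested probes. Of the 10 above background on all 4 XX arrays 4 were called, beside 26.5% of all probes of that kind, whose median was 0.77. Taf9, Taf7, Taf4 and Tbp were above background on all 4 XX arrays and rose by 4.02, 3.01, 2.99 and 2.82, and Taf2 by 3.18 with 1 of 2 inputs and 1 of 2 IPs above background. In the XY IP 3 of 14 were called enriched, Taf9 by 3.66, Taf7 by 3.29 and Taf2 by 2.98, and 1 depleted, Taf12 at -2.16 with 1 of 2 IPs above background. The median was 0.78 against -0.03, and 10.2% of all tested probes were called enriched and 7.68% depleted.

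Taf7, the broadly expressed relative of Taf7l, was enriched in both sexes, whereas Taf7l passed in XX alone, a contrast between genes that was not tested. Taf4, the relative of Taf4b, read 2.15 in the XX input and 5.14 in the XX IP on average, and 1.83 and 2.77 in XY, where its difference of 0.94 did not pass (adjusted p = 0.097). The sexes differed by 2.05 in the enrichment of Taf4 (adjusted p = 0.091). Of the 14 subunits, 0 were called between the inputs of the sexes and 0 in the difference of enrichment by limma, each with 2 at an unadjusted p under 0.05. The share of all tested probes at that unadjusted limit was not computed. The input differences of Taf4 (0.32) and Taf7 (-1.05, adjusted p = 0.12) were not called, beside those of Taf4b and Taf7l given above, which were. Tbpl1, a relative of TBP used in male germ cells, was enriched in XX by 2.95 (adjusted p = 0.00054) and in XY by 2.68 (adjusted p = 0.0014), and Tbpl2, the oocyte form, was not tested for lack of signal.

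**Figure D4:**
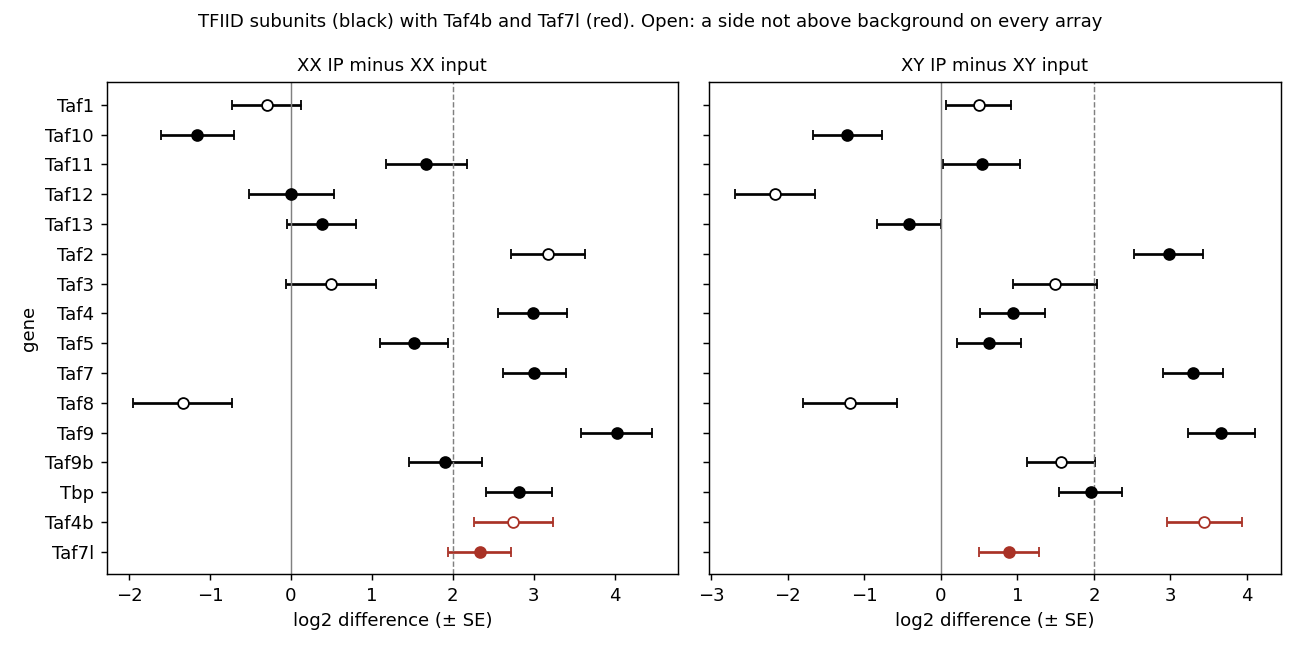
Log2 difference between IP and input (x axes, bars are SE) in XX (left) and XY (right) for 14 TFIID subunits (black) and for Taf4b and Taf7l (red); open points had a side not above background on every array, and the dashed line marks 4-fold. Taf9 and Taf7 lie beyond 4-fold in both sexes, and Taf7l (2.33 and 0.89) beyond it in XX alone.

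Of 24 genes of the oocyte and its signalling with supporting cells, 10 were not tested for lack of signal, among them Zp1, Zp2 and Zp3, the zona pellucida genes that FIGLA controls, and Bmp15. Of the 14 tested, 2 were called higher in the XX input, Kitl, the Kit ligand made by supporting cells, by 2.61 and Gdf9, and 8 lower, against 5.87% and 6.10% of all tested probes. Gdf9, an oocyte growth factor, was above background on the XX inputs and on none of the other arrays, and was tested through the XX inputs alone. Of the 8 called lower, 3 were above background on all 4 inputs, Dppa3 (-4.19), Jag1 (-2.35) and Ooep (-1.79). Nlrp14, Padi6, Zar1, Pou5f1 and Khdc3 passed the filter through XY inputs alone, so that a difference was built into their being tested, and no median is given for the list. In the XX IP 6 of 14 were called enriched, against 14.0% of all tested probes. Of these, Kit (2.89) and Dppa3 (2.51) were above background on all 4 arrays, Nlrp14 on 1 input alone, and Padi6, Zar1 and Khdc3 on none of the XX arrays, so no fold is given for them. Tle6 was called depleted (-2.58, 1 of 2 IP arrays above background). Kit (3.12) and Dppa3 (2.91) were also the 2 of 14 called in the XY IP, against 10.2% of all tested probes.

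Among 17 other transcription factors of germ cells, 15 were on the array and 8 were tested. Between the inputs 3 were called higher in XX and 3 lower, against 5.87% and 6.10% of all tested probes. Higher were the meiotic inducer Stra8 by 6.41, Rhox9 by 4.90 and Rhox6 by 4.63. Lower was Tfap2c at -1.70. Sall4 and Pou5f1, also called lower, were above background on 1 of 2 XX inputs and passed the filter through XY samples alone, so a difference was built into their being tested. In the XX IP 5 of 8 were called enriched, against 14.0% of all tested probes, 2 of them above background on all 4 arrays, Prdm1 by 3.88 and Stra8 by 2.11. In the XY IP 5 of 8 were called, against 10.2%, 4 of them above background on all 4 arrays, Prdm1 by 3.38, Tfap2c by 2.96, Stra8 by 2.86 and Sall4 by 2.49.

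The members' patterns over the 8 arrays were compared as a description, since all arrays share their scaling and the IP against input difference common to dim probes. The Pearson correlation of log2 signals was 0.985 for Lhx8 with Sohlh2, 0.909 for Taf7l with Sohlh2 and 0.876 for Taf7l with Figla. It was lowest, at 0.283, for Figla with Nobox. Among the other 16889 named probes tested, the 3 closest to Lhx8 were Pex7, Suco and Tfrc (0.994 to 0.996), and the 3 closest to Sohlh2 were Cep83, 4930447C04Rik and Mlf1 (0.996 to 0.998). Those closest to Taf7l were Mfsd13b, 1700001L05Rik and Xlr (0.994 to 0.997), and to Figla Tanc2, Tesmin and Slc22a21 (0.982 to 0.993). For Taf4b they were 4932443L11Rik, Tex12 and Cstf3 (0.986 to 0.996), and for Nobox, which was below background on every IP, they were 9530068E07Rik, Apobec1 and Phf20l1 (0.989 to 0.994).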

How the data were processed

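Members and gene lists were chosen with earlier results of these data known. The deposited scanner files give a processed intensity per spot, from which Agilent Feature Extraction 9.5.3.1 had subtracted background, and the mean intensity and median local background per the file headers. The authors also deposited a table of log2 values, which their methods describe as floored at 1 and divided by the 75th percentile of the array. It was an alternative here.

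The scanner intensities were processed in that way after outlying spots were left out, and spots of a probe were averaged. Of 41101 usable probes, 18265 had signal above background on all arrays of any group and were tested. None was saturated. Linear models with 1 mean per group were fitted to all 8 arrays in limma 3.58.1 (R 4.3.3) with moderated variances. Tests were two-sided, with Benjamini-Hochberg adjustment over the 18265 probes. IP against input also required 4-fold. The study used the same fold and p limits, and neither a test nor an adjustment of p is stated. An "at least" fold sets the bright group against the higher of the dim probe's own signal and the lowest signal above background on each array. Genes were all the members, and 4 lists of related genes represented by the probe of highest mean signal.

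Groups came from sample titles. The labels do not say whether the 2 arrays of a group came from separate embryos, so p-values measure the spread between these samples. The number of arrays limits precision. Alternatives covered scaling, background correction, the floor, the filter, the authors' table, the arrays fitted, a replicate block, unmoderated variances and leaving out each array. Promoters and names came from RefSeq tables (GRCm38.p6). Probe positions are those of the files (mm8).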

Additional observations from a re-analysis of the deposited data

How the results depend on the processing

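The count of member probes enriched in the XX IP, 5 of 7, was 1 with scaling to the 50th percentile, 3 with scaling to the 75th percentile of probes above background on all arrays, 3 with quantile normalization, and 0 with normexp, with or without outlying local backgrounds replaced, and 4 to 5 when single arrays were left out. For all tested probes the share enriched in XX, 14.0%, became 1.03%, 9.15%, 8.1% and, with either normexp setting, 0.378%, in the same order. The XY count, 3, was 0 with the 50th percentile, both normexp settings and a common floor. There 1.2%, 0.115%, 0.378% and 3.92% of all tested probes were called enriched, against 10.2%. The input count, 6, was 3 with normexp, the common floor or unmoderated variances, and 5 to 6 without single arrays. The count for the difference of enrichment, 0, was 1 with quantile normalization (Lhx8, 3.73), 1 with normexp after replacing outlying backgrounds (Figla, -2.39), 2 with the common floor (Sohlh2, 2.98, and a Taf7l probe, 2.13) and 0 to 1 without single arrays. Of all tested probes 2.21%, 3.02% and 1.85% were called higher in the XX input with normexp, the common floor and unmoderated variances, against 5.87%. For the difference of enrichment, 2.69%, 0.772% and 3.62% were called more enriched in XX with quantile normalization, replaced backgrounds and the common floor. Called less enriched were 2.32%, 0.668% and 2.44%. The labels do not say that a replicate number marks a shared lysate. Deviations of same-numbered input and IP arrays correlated at 0.072 in XX and 0.090 in XY over the tested probes, and at 0.031 and 0.138 over those above background on all 8 arrays, which leaves pairing unsettled. A replicate block gave 1 call for the difference (Figla, -2.28, adjusted p = 0.021) and left the XX and XY counts at 5 and 3. Over all tested probes the block called 5.27% more enriched in XX and 2.79% less. Nobox was above background on no IP array, so its IP values are background signal and give no direction for the mRNA. Signs turned for Nobox in the XX IP (-1.33 with the 50th percentile, -1.55 with quantile normalization), in the XY IP (-0.88 and -0.78) and in the inputs (-0.33 with normexp), and for Taf4b in the inputs (-0.15 with normexp). They also turned for Taf7l in the XY IP, at -0.75 and -0.98 for its 2 probes with the 50th percentile, and at -0.28 and -0.37 for A_52_P246973 with the normexp settings. The median XX difference of all tested probes was -1.92 with the 50th percentile, -0.34 with the 75th percentile of probes above background on all arrays and -0.74 with quantile normalization, against 0.09. Both of the alternative percentile scalings move every probe of a contrast by the same amount, and the cause of the other changes was not tested. Low signal on the IP arrays limits the XY enrichment of every member probe but 1 of Taf7l.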
